A study of Homo sapiens with 8 samples.

Results

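Members of the Arf GTPase-activating protein family were examined in CD10-A375, A375 melanoma cells that carry a plasmid with the open reading frame of CD10, and in mock-A375, A375 cells that carry the empty vector, with 4 bead arrays of each. A375 is an established human melanoma line. Both derivatives were selected with G418, and CD10-A375 was also sorted for CD10 on the cell surface. The sources used here describe 1 transfected population per group, so the spread between arrays is that between cultures of these populations, and a difference between CD10-A375 and mock-A375 cannot be told apart from a difference between 2 selected populations. The 10 genes ADAP1, ADAP2, ASAP1, ASAP2, ASAP3, ACAP1, ACAP2, ACAP3, ARFGAP1 and ARFGAP3 were selected on values of this same comparison, in which ADAP1 had been seen among the largest decreases. Their differences are therefore given as a description and without a test. All 10 genes have at least 1 probe on the array, 19 probes in all, among 20046 genes with a probe. A probe was kept if its detection p was at most 0.01 on 1 array or more, which held for 14 of these probes, representing 7 genes of 11303 that passed. No probe of the other 3 genes, ADAP2, ACAP1 and ACAP3, was detected on any array. MME, the gene of CD10, was not detected by any of its 4 probes on any array (lowest detection p 0.114). The plasmid held only its open reading frame, and where its probes lie in the transcript is not given here, so the labels cannot be checked with it.

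Arf proteins are small GTPases that recruit coats, lipid kinases and other effectors to the Golgi apparatus, endosomes and the plasma membrane while they hold GTP. Exchange factors with a Sec7 domain load them with GTP, and Arf GTPase-activating proteins, which share a zinc finger domain, end the signal by speeding up GTP hydrolysis. The ARFGAP proteins act mainly at the Golgi apparatus, the ACAP proteins on endosomal recycling, the ASAP proteins at focal adhesions and other actin-rich sites of the cell cortex, and the ADAP proteins, formerly called centaurins alpha, bind phosphoinositides produced by phosphatidylinositol 3-kinase. In bulk RNA, fewer cells that express a gene and less of its RNA per cell cannot be told apart.

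The promoters are shown of 3 of the 4 members that lay apart between the groups. ASAP1, the other one, is left out because no promoter sequence was found for it, nor for ACAP1 and ARFGAP1. Promoter sequence lies before the starts that RefSeq lists for a gene. RefSeq sequences (GRCh38.p14) of the 250 bases before a start were found for 7 of the 10 members, with 4 starts for ADAP1. Each runs 5′ to 3′ on the strand of its gene, which is the minus strand for all 3, and capitals mark GC boxes (GGGCGG on either strand), the letters to which SP1-type factors bind. The windows are chr7:954681-954930 for the outermost of the 4 listed ADAP1 starts, chr1:23484180-23484429 for ASAP3 and chr22:42857274-42857523 for ARFGAP3. The ADAP1 and ASAP3 windows lie inside the annotated span of their genes, short of its 5′ end, so neither precedes the start farthest upstream in the annotation.
ADAP1: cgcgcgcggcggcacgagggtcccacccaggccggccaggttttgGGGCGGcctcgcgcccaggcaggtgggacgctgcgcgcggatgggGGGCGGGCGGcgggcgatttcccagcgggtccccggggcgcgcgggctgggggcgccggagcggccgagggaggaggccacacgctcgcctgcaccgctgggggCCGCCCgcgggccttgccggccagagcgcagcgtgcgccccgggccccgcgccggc
ASAP3: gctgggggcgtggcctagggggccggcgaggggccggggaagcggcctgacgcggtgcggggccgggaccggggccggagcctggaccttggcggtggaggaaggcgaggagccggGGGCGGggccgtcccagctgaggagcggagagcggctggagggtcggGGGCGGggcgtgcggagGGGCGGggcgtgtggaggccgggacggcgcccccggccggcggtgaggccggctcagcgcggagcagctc
ARFGAP3: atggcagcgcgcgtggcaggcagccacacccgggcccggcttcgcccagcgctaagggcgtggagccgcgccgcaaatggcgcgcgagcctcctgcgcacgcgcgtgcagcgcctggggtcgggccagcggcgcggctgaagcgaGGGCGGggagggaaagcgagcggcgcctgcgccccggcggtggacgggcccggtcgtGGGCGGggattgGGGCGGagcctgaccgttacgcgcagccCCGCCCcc

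The ADAP1 window held 4 GC boxes, of which 2 overlapped in their letters, with 83.6% G and C and 41 CpG. ASAP3, whose signal was higher in CD10-A375, had 3 GC boxes, 82.0% G and C and 33 CpG, and ARFGAP3 had 4, 78.8% and 40. Over 35116 RefSeq windows of this length, 42.6% held a GC box, and the medians were 58.0% G and C and 11 CpG. The E-box CACGTG, the AP-1 letters TGANTCA and the CRE letters TGACGTCA, searched on both strands, were in none of these 3 windows, against 6.34%, 6.57% and 1.65% of all windows. GC boxes were also found before members that overlapped between the groups or were not detected, with 4 for ASAP2, 4 for ACAP2, 5 for ACAP3 and 2 for ADAP2. The other 3 ADAP1 windows were less rich in CpG, with 11, 3 and 11, and an E-box was in the ADAP1 window farthest downstream. The array probes of ADAP1 carry a single transcript accession and do not tell which start was used. A match is a description of the letters only.

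Of the 7 detected members, 4 had arrays that did not overlap between the groups at their brightest probe. ADAP1 and ASAP1 were lower and ASAP3 and ARFGAP3 higher in CD10-A375. Over all 11303 genes, 40.0% did not overlap. ASAP2, ACAP2 and ARFGAP1 overlapped between the groups, with log2 differences of -0.15 to 0.30. The median difference of the 7 members was -0.04 and their median size regardless of sign was 0.75, whereas over all genes the median was -0.03 and the median size 0.22. These members were picked with such values in view, so nothing can be read from this contrast with all genes. The differences of the family did not share a direction.

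**Figure D1:**
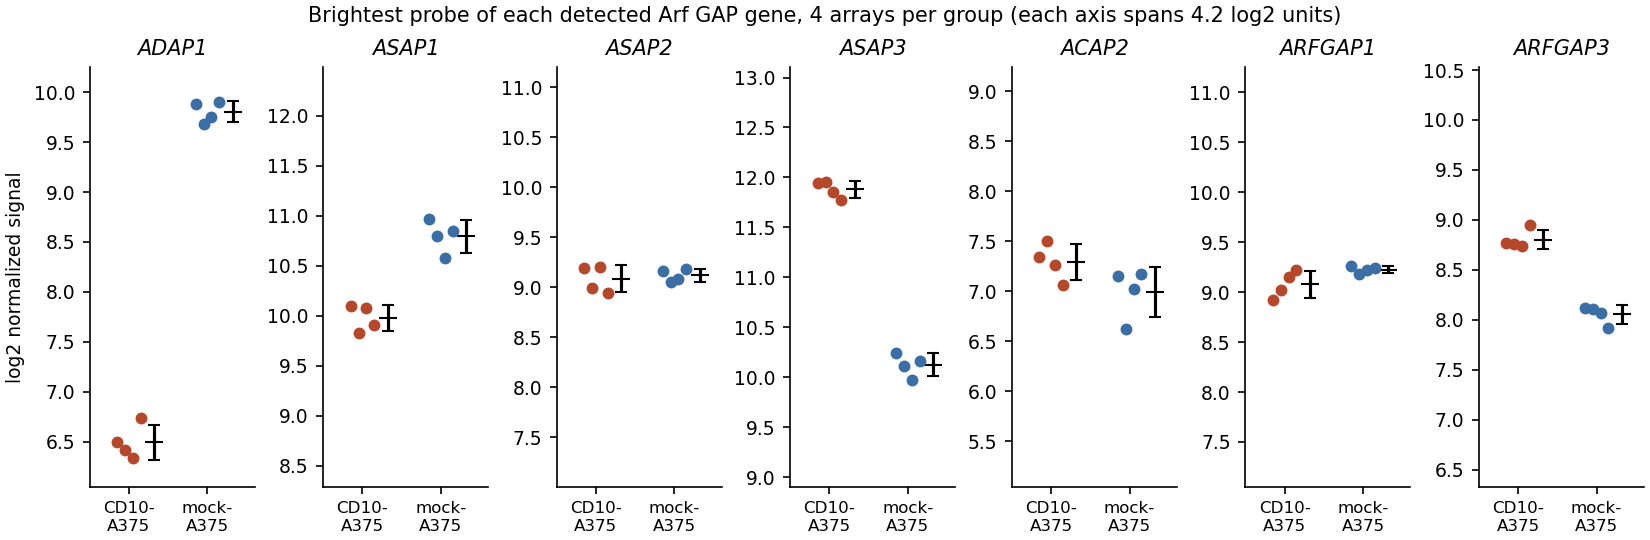
Log2 normalized signal (vertical axis) of the brightest probe of each of the 7 detected members, with 1 point per array, CD10-A375 left and mock-A375 right, and the mean with its SD beside the points. ADAP1 and ASAP1 lie lower and ASAP3 and ARFGAP3 higher in CD10-A375 with no overlap, and the levels of different probes are not comparable with each other.

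ADAP1, also called CENTA1, binds phosphatidylinositol trisphosphate and inositol tetrakisphosphate and is best known from neurons. The gene lies at chr7:897900-955407 (GRCh38.p14). Its brighter probe had background-subtracted signals of 72.6, 76.8, 63.2 and 85.0 in the 4 CD10-A375 arrays, against 954, 772, 911 and 949.6 in the 4 mock-A375 arrays. Every CD10-A375 array was far below every mock-A375 array, yet all 8 detected the probe, with detection p-values of at most 0.0039 in CD10-A375. After normexp background correction, quantile normalization and an offset of 16, the log2 signals were 6.49, 6.41, 6.33 and 6.74 in CD10-A375 and 9.88, 9.68, 9.75 and 9.90 in mock-A375. Their means were 6.49 ± 0.17 in CD10-A375 and 9.80 ± 0.11 in mock-A375 (SD, n = 4 each), a log2 difference of -3.31 (standard error 0.10), or 9.92-fold lower. The gap between the highest CD10-A375 array and the lowest mock-A375 array was 2.95 on the log2 scale. It ranked at 16 among the 19550 tested probes, counted from the most negative difference.
The second ADAP1 probe was not detected on any array, with a lowest detection p of 0.0649. Its signals were -16.3, -13.2, -1.31 and -10.4 in CD10-A375 and 19.6, 6.51, 13.05 and 5.73 in mock-A375. Here, too, the 4 CD10-A375 arrays lay below the 4 mock-A375 arrays, but no fold is given because both groups were at background. ADAP2, the closest relative of ADAP1, had a single probe with signals of -12.04 to -9.60 in CD10-A375 and -15.8 to -4.41 in mock-A375, and its lowest detection p was 0.622.

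ASAP3, also called DDEFL1 or UPLC1, is an Arf GTPase-activating protein of focal adhesions and stress fibres that lacks the SH3 domain of its relatives ASAP1 and ASAP2. The gene lies at chr1:23428563-23484631. It had the largest difference toward CD10-A375 among the members. The signals of its only probe were 3797, 4438, 3452 and 3305 in CD10-A375, against 1243, 1054, 1065 and 1147 in mock-A375. The lowest CD10-A375 array was thus well above the highest mock-A375 array. On the log2 scale it averaged 11.88 ± 0.09 in CD10-A375 and 10.12 ± 0.11 in mock-A375 (SD, n = 4 each), a difference of 1.76 (standard error 0.07), or 3.39-fold higher. It ranked at 185 among the 19550 tested probes, counted from the largest increase.

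ASAP1, a scaffold with a BAR, a PH and an SH3 domain that binds the kinases SRC and FAK, differed in the other direction. The brightest of its 3 probes had signals of 1024, 999, 984 and 878 in CD10-A375 and 2036, 1696, 1627 and 1847 in mock-A375. Its log2 signals were 10.10, 9.83, 10.08 and 9.91 in CD10-A375, against 10.96, 10.80, 10.57 and 10.85 in mock-A375, a difference of -0.82 (standard error 0.08). All 3 probes were detected on all 8 arrays, and for each of them no array of CD10-A375 overlapped with one of mock-A375. The second probe had a log2 difference of -0.94 (standard error 0.09) and the dimmest, with log2 signals of 7.26, 6.79, 7.15 and 7.09 in CD10-A375 and 8.08, 8.33, 8.30 and 8.30 in mock-A375, had -1.18 (standard error 0.11). Expressed as folds the 3 probes were 1.76, 1.92 and 2.26 times lower in CD10-A375.

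ASAP2, which also has an SH3 domain and binds the FAK relative PYK2, did not follow either of its relatives. Its brightest probe had log2 signals of 9.19, 8.99, 9.21 and 8.95 in CD10-A375, against 9.17, 9.05, 9.08 and 9.18 in mock-A375. The groups overlapped and the difference was -0.04 (standard error 0.08). Its second probe had 0.06 (standard error 0.08). The dimmest probe had -0.26 (standard error 0.11), with log2 signals of 6.89 to 7.24 in CD10-A375 and 7.23 to 7.50 in mock-A375, which met only at their ends. The 3 ASAP genes thus gave differences of 1.76, -0.82 and -0.04 at their brightest probes in the same RNA.

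**Figure D2:**
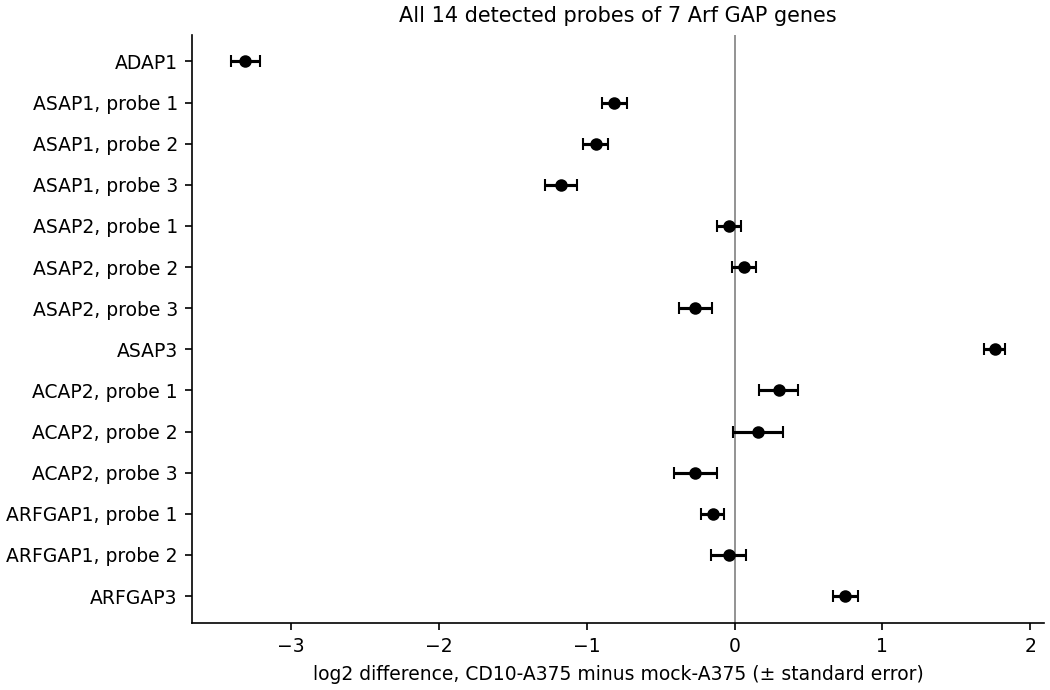
Log2 difference between CD10-A375 and mock-A375 (horizontal axis) for all 14 detected probes of 7 members, with the standard error of the fit as bars and the probes of a gene ordered from the brightest to the dimmest. The 3 ASAP1 probes lie together between -1.18 and -0.82, whereas the 3 ACAP2 probes lie on both sides of 0.

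Of the members with a role at the Golgi apparatus, ARFGAP3, which takes part in COPI vesicle transport, was higher in CD10-A375. It lies at chr22:42796502-42857273. Its detected probe had signals of 402, 463, 385 and 447 in CD10-A375, against 271, 249, 266 and 229 in mock-A375. The log2 means were 8.80 ± 0.10 in CD10-A375 and 8.05 ± 0.09 in mock-A375 (SD, n = 4 each), a difference of 0.75 (standard error 0.08), or 1.68-fold higher. The lowest CD10-A375 array stood 0.62 above the highest mock-A375 array on the log2 scale. The second ARFGAP3 probe was not detected on any array, with a lowest detection p of 0.662, so the difference rests on a single probe.
ARFGAP1, which binds to curved Golgi membranes and stimulates GTP hydrolysis on ARF1, overlapped between the groups. Its brighter probe had log2 signals of 8.92, 9.02, 9.15 and 9.22 in CD10-A375, against 9.26, 9.18, 9.23 and 9.24 in mock-A375. The CD10-A375 arrays were lower in 3 of 4 cases than the lowest mock-A375 array, with a difference of -0.15 (standard error 0.08). The dimmer probe, which carries another transcript accession, had -0.04 (standard error 0.12).

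ACAP2, which acts on ARF6 and binds RAB35, was the only detected member of the ACAP group. Its 3 probes had differences of 0.30, 0.16 and -0.26 from the brightest to the dimmest (standard errors 0.13, 0.17 and 0.15), and all 3 overlapped between the groups. The brightest had log2 signals of 7.34, 7.50, 7.27 and 7.06 in CD10-A375 and 7.15, 6.63, 7.02 and 7.17 in mock-A375. The second had the widest spread of the detected probes, with 7.31, 6.54, 7.26 and 6.47 in CD10-A375 and 6.74, 6.62, 6.76 and 6.81 in mock-A375. Replicates 1 and 3 of CD10-A375 were high there and replicates 2 and 4 low.
ACAP1, which is known from the recycling of the transferrin receptor and integrins, and ACAP3 had 1 probe each, neither of which was detected. The signals of ACAP1 were -17.4 to -8.51 in CD10-A375 and -14.7 to -8.57 in mock-A375, and those of ACAP3 were -12.1 to -1.68 in CD10-A375 and -7.61 to -1.92 in mock-A375. Whether these genes differ between the groups was not detectable on these arrays.

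The genes around ADAP1 on chromosome 7 are no members and were tested. Of the 5 genes with a detected probe on either side of ADAP1, which together span 1045 kb, 1 was higher and 2 were lower in CD10-A375 (adjusted p under 0.05, limma with Benjamini-Hochberg adjustment over the 19550 probes). Over all genes 41.8% were called, 19.9% higher and 21.9% lower. FAM20C, a kinase of secreted proteins and the outermost of these genes at smaller coordinates, had a log2 difference of 1.46 (standard error 0.08, adjusted p = 2.6e-11), PRKAR1B, a regulatory subunit of protein kinase A, one of -0.58 (adjusted p = 0.00912) and DNAAF5, a dynein assembly factor, one of -0.33 (adjusted p = 0.00115). Next to ADAP1, the 95% interval of the difference was -0.16 to 0.22 for GET4, at a distance of 1.46 kb, and -0.42 to 0.11 for COX19, at 9.45 kb on the other side. The next genes outward, SUN1 and CHLSN, had intervals of -0.19 to 0.16 and -0.21 to 0.04. With a SAM test (significance analysis of microarrays, by relabelling the arrays) only FAM20C was called, and PRKAR1B and DNAAF5 had adjusted p-values of 0.0885 and 0.172. The relabellings included the true grouping, so no adjusted p of this SAM test could fall below 0.0286, the value of FAM20C.

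**Figure D3:**
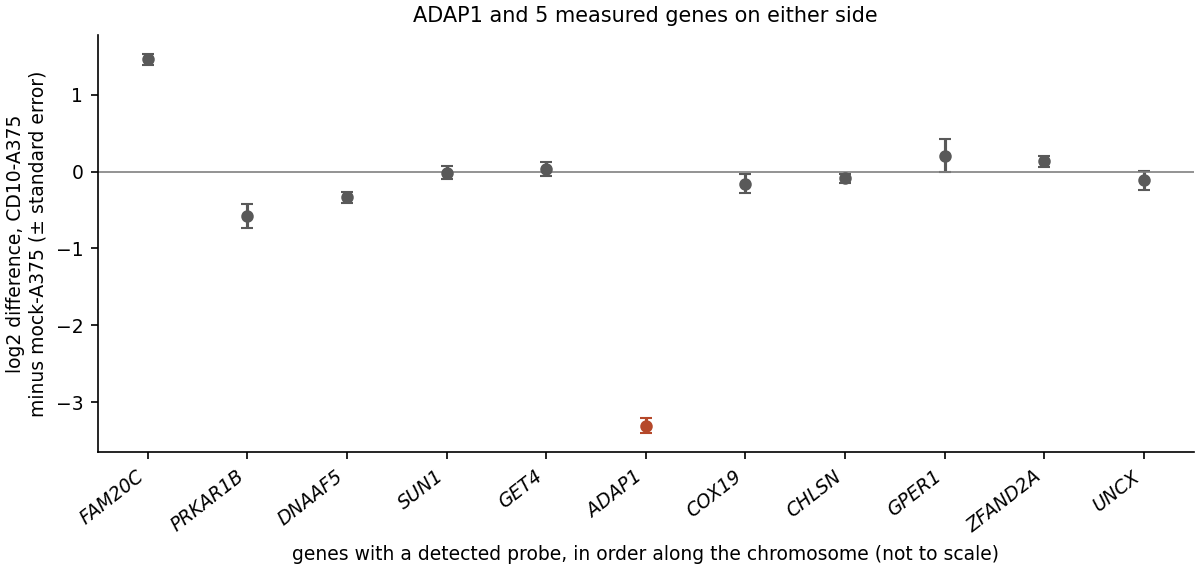
Log2 difference between CD10-A375 and mock-A375 (vertical axis, bars show the standard error of the fit) of ADAP1 and of the 5 measured genes on either side of it, in chromosome order and not to scale. ADAP1 lies at -3.31, the 4 genes nearest to it lie between -0.16 and 0.03, and FAM20C lies at 1.46.

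The other genes of the Arf system came from lists of known function, drawn up with earlier results of these data known. Of 18 other genes with an Arf GAP domain, 13 passed the filter, with 4 higher in CD10-A375 and 3 lower there (limma, adjusted p under 0.05) and 6 that did not pass the test. Their median difference was 0.12. Of these 13 genes 53.8% were called, against 41.8% over all genes (19.9% higher and 21.9% lower). Nothing can be read from this contrast, as the list was drawn up with earlier results known. AGAP1 and AGAP3, members of the AGAP group that combine an Arf GAP domain with a GTPase-like domain, had log2 differences of 0.62 (standard error 0.09, limma adjusted p = 1.7e-05) and 0.59 (standard error 0.09, adjusted p = 3.7e-05 from limma). AGAP1 had log2 signals of 8.80, 9.13, 9.05 and 8.90 in CD10-A375, against 8.47, 8.30, 8.28 and 8.34 in mock-A375, without overlap. GIT1, a focal adhesion scaffold, had -0.35 (adjusted p = 0.00866 from limma) and AGAP6, a gene with almost identical paralogs that may add to its signal, -0.29 (adjusted p = 0.0376 from limma). ARFGAP2, the closest relative of ARFGAP3, had 0.03 (adjusted p = 0.804 from limma). The call of AGAP6 was lost when any single array was left out, other than CD10-A375 replicate 3 and mock-A375 replicates 2 and 3. Without CD10-A375 replicate 2 the list had 4 called genes in place of 7. SAM called 3. Of the 3 AGAP3 probes and the 2 AGAP6 probes, 1 each passed the test.

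Of 26 Arf and Arl GTPases and their SAR1 relatives, 15 have a probe in the annotation used here and 13 passed the filter. CD10-A375 had 3 of them higher and 2 lower, and 8 did not pass the test. Of these 13 genes 38.5% were called, against 41.8% over all genes (19.9% higher and 21.9% lower). Their median difference was 0.08. ARL15 had the largest, with 0.89 (standard error 0.20, adjusted p = 0.00159 from limma). SAR1A, which starts COPII coats, had -0.42 (adjusted p = 0.00499 from limma), ARF5 0.32 (adjusted p = 0.00327 from limma) and ARL2, a tubulin folding partner, 0.19 (adjusted p = 0.0123 from limma). The GTPases on which the members act most often, ARF1 and ARF6, had 0.10 and 0.08 (adjusted p = 0.229 and 0.786 from limma), but the ARF6 probe was detected on 1 CD10-A375 array and no mock-A375 array. Without normalization between arrays 1 was higher and 3 lower, the calls of ARF5 and ARL2 being lost (adjusted p = 0.0640 and 0.193 from limma), and SAM called 1 gene.

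Of 16 genes listed as Arf exchange factors, 11 passed the filter, with 2 higher in CD10-A375, 3 lower there and 6 that did not pass the test. Of these 11 genes 45.5% were called, against 41.8% over all genes (19.9% higher and 21.9% lower). FBXO8, an F-box protein with a Sec7 domain, had log2 signals of 7.77, 7.79, 7.56 and 7.76 in CD10-A375, against 4.95, 4.86, 4.92 and 5.11 in mock-A375, where no array detected it. The level in CD10-A375 exceeded that in mock-A375 at least 3.98-fold. This bound sets the CD10-A375 mean against the lowest detected signal of each mock-A375 array. PSD4, an exchange factor for ARF6, had a detected signal on 4 of 4 CD10-A375 arrays and 0 of 4 mock-A375 arrays. Its increase was at least 1.28-fold. FBXO8 and PSD4 passed the filter only through CD10-A375, which favours a higher value there. Their adjusted p-values from limma, 4.0e-12 and 9.9e-06, belong to fitted log2 differences of 2.76 and 1.23 against background, and not to the bounds. ARFGEF1, which acts at the trans-Golgi network, had a log2 difference of -0.55 (standard error 0.11, limma adjusted p = 4.7e-04) and CYTH2, a cytohesin, -0.28 (adjusted p = 0.0388 from limma). SAM called only FBXO8 and PSD4, and the call of CYTH2 was lost when any single array other than CD10-A375 replicate 3 or mock-A375 replicate 3 was left out.

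Of 40 coat subunits and other Arf effectors, 34 passed the filter, and CD10-A375 had 10 of them higher and 1 lower, with 23 that did not pass the test and a median difference of 0.12. COPG2, a subunit of the COPI coat, had the largest difference with 0.89 (standard error 0.17, adjusted p = 4.4e-04 from limma), from log2 signals of 8.43, 7.32, 7.74 and 7.86 in CD10-A375 and 6.67, 7.00, 7.17 and 6.94 in mock-A375. SPAG9, a motor adaptor that binds ARF6, had 0.38 (adjusted p = 0.00429 from limma), ARHGAP21, an Arf effector at the Golgi apparatus, 0.35 (adjusted p = 7.2e-04 from limma) and COPZ2, another COPI subunit, 0.35 (adjusted p = 0.0102 from limma). Of the 34 genes 32.4% were called, against 41.8% over all genes (19.9% higher and 21.9% lower). Without normalization between arrays 4 were higher and 1 lower, without the intensity trend 7 were higher and none lower, and SAM called 2.

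Of 19 binding partners and cargo proteins of the members, 17 passed the filter, with 6 higher in CD10-A375, 6 lower there and 5 that did not pass the test. Of these 17 genes 70.6% were called, against 41.8% over all genes (19.9% higher and 21.9% lower). The list was drawn up with earlier results known, so nothing can be read from this contrast. PXN, a focal adhesion adaptor, had a log2 difference of 0.85 (standard error 0.13, adjusted p = 3.2e-05 from limma). TFRC, the transferrin receptor carried by ACAP1, had -0.65 (standard error 0.05, limma adjusted p = 1.5e-08) and PTK2, the FAK gene, -0.62 at its brightest probe (standard error 0.06, adjusted p = 2.5e-07 from limma). The other PTK2 probe had -0.12 and did not pass the test. SH3KBP1, an adaptor of receptor endocytosis, had 0.63 at its brightest probe (adjusted p = 1.5e-07 from limma), but its 3 probes ran from -1.90 to 0.80. SRC, which lies outside the rule for naming genes and was chosen after its values were seen because its protein binds ASAP1, had -0.53 (adjusted p = 2.0e-05 from limma). Other partners outside the rule went the other way. RAB35, which ACAP2 binds, had 0.59 (adjusted p = 2.4e-05 from limma) and KIF13B 0.47 (adjusted p = 0.0131 from limma). SAM called 7 genes of this list.

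**Figure D4:**
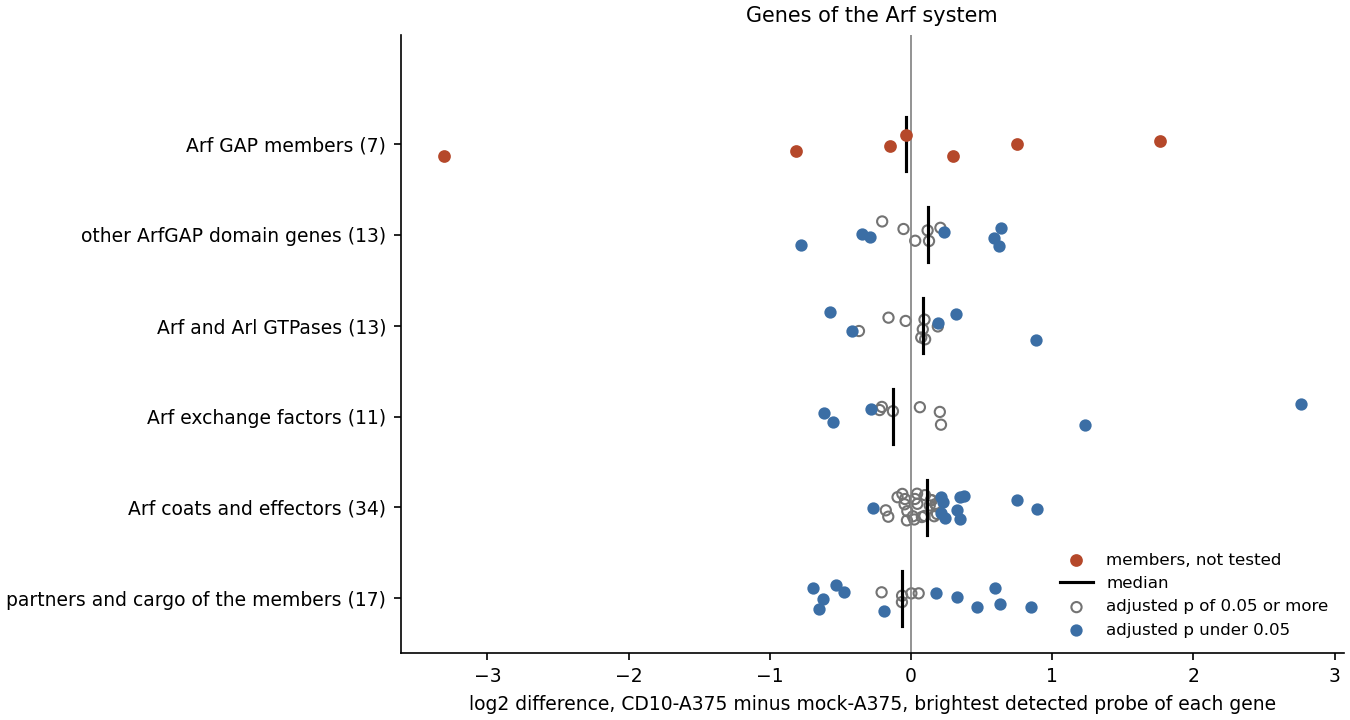
Log2 difference between CD10-A375 and mock-A375 (horizontal axis) at the brightest detected probe of each gene, with the 7 members above 5 lists of the Arf system, members in red and untested, filled blue points for an adjusted p under 0.05 from limma and a bar at each median. The medians lie between -0.13 and 0.12. FBXO8 and PSD4 of the exchange factor list, which no mock-A375 array detected, are drawn at fitted values against background that depend on the offset.

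The number of detected probes was 15977 to 16937 per CD10-A375 array and 15930 to 16709 per mock-A375 array. Arrays correlated at 0.991 to 0.993 within groups and at 0.962 to 0.967 between groups. Of 12 melanoma and melanocyte markers, 11 have a probe and 5 passed the filter. PMEL, MLANA, TYR, TYRP1, DCT, S100B and SOX9 were not among these 5, and they include the marker that has no probe and was not measured. The 5 that passed were detected on all 8 arrays. By limma, 2 were higher in CD10-A375, with log2 differences of 0.53 for SOX10 and 1.09 for S100A1, a gene that the study itself picked from these samples. AXL was lower (-0.21, adjusted p = 0.045 from limma), and MITF with 0.14 and VIM with 0.07 did not pass the test. Of 16 markers of other cell types, 4 passed, and the blood cell marker PTPRC, the endothelial marker PECAM1 and the keratinocyte markers KRT5 and KRT14 were not among them. The macrophage markers CD14 and CD68 were detected on all 8 arrays, with log2 differences of 0.14 and 0.09 that did not pass the test, while 1 of the 3 CD68 probes was called higher. The fibroblast markers LUM and COL1A2 were called lower in CD10-A375, where no array detected them, and were detected on 2 and 1 of the mock-A375 arrays. LUM and COL1A2 passed the filter only through those arrays, which favours a lower value in CD10-A375, and both lay near background. Their part in the differences of the members was not tested. Precision was limited by having 4 arrays per group.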

How the data were processed

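Total RNA of CD10-A375 and mock-A375 was hybridized to Illumina HumanHT-12 v4 bead arrays, 4 per group. The authors compiled the arrays in BeadStudio and normalized them in GenomeStudio. They deposited background-subtracted intensities on a linear scale without normalization, a detection p-value (p-value of each probe against negative control probes), and the intensities after average normalization, to which the floor of 0.1 in the methods had not been applied.
From the unnormalized intensities, log2 values were made with limma 3.58.1 in R 4.3.3, using normexp from detection p-values, quantile normalization and an offset of 16, so that differences of dim genes come out too small. The fit by limma, with an intensity trend and two-sided p-values, took in 19550 of 47322 probes, those whose detection p was at most 0.01 on any array, and its p-values were adjusted over all of these by the method of Benjamini and Hochberg. Each gene was represented by its brightest tested probe. Of the probes, 30113 carry 1 symbol, 8 several (left unnamed) and 17201 none. Older symbols were replaced through RefSeq gene IDs (GRCh38.p14), since ARFGAP1 is also an older name of ARFGAP3.
Members and lists were chosen with earlier results of these data known. All members are named, and from each list up to 4 called genes with the largest difference among those detected on all 8 arrays and up to 2 with the largest bound. Named genes outside this rule (ARFGAP2, ARAP2, ARF1, ARF6, ARL6, SRC, RAB35, KIF13B) were chosen after their values were seen. For a bound, the group without detection was given, per array, the higher of its lowest detected signal and the probe's own. The fit was tested on simulated data.
Alternatives covered the background correction, normalization, values made as the methods describe, offset, filter, trend, threshold, probe per gene, a two-class SAM test written anew, the replicate number as a block, and leaving out each array.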

Additional observations from a re-analysis of the deposited data

Results flagged for a closer look

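In 8 of 74 groups of 4 arrays checked, 1 array stood apart from the other 3 by a gap above Dixon's critical value for 4 values, which chance gives in about 1 of 20 groups. Among the members, the dimmest ASAP1 probe had a log2 signal of 8.08 in mock-A375 replicate 1, against 8.30 to 8.33 in the other mock-A375 arrays. The ARFGAP3 probe had 8.95 in CD10-A375 replicate 4, against 8.73 to 8.77 in the other CD10-A375 arrays. Neither array changed the order of the groups, which did not overlap at either probe. Among the other genes of the Arf system, FBXO8 had 7.56 in CD10-A375 replicate 3 (others 7.76 to 7.79) and COPZ2 7.73 in CD10-A375 replicate 1 (others 7.52 to 7.53). In mock-A375, CYTH2 had 8.23 in replicate 3 (others 8.56 to 8.63), SPAG9 9.55 in replicate 1 (others 9.18 to 9.22), TFRC 13.11 in replicate 2 (others 13.21 to 13.22) and SH3KBP1 11.56 in replicate 2 (others 11.64 to 11.65).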

How the results depend on the processing

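Alternatives were run for the members and for 23 other named genes, and at the probe used in the report none of these reversed its sign, except that ASAP2, which overlapped between the groups, ran from -0.08 to 0.01 when single arrays were left out. ADAP1 had a log2 difference of -2.90 with an offset of 50, -3.55 with an offset of 1, -3.57 with average-normalized values floored at 0.1, and -3.39 to -3.26 without single arrays. Taking another probe of the gene gave -1.18 for ASAP1, -0.26 for ASAP2, -0.26 for ACAP2 (0.30 at its brightest probe) and -0.039 for ARFGAP1. At an unadjusted p under 0.01 with a 2-fold difference, the threshold of the methods, limma called 0 other Arf GAP domain genes, 0 GTPases, 2 exchange factors, 0 coats and effectors, 0 partners and 1 neighbour of ADAP1, against 7, 5, 5, 11, 12 and 3 in the report. SAM called 3, 1, 2, 2, 7 and 1 in the same order. Over all genes, too, SAM called fewer, with 988 higher and 884 lower against 2244 and 2477 by limma. Its relabellings included the true grouping, which limits how small its adjusted p-values can be. Coats and effectors had 5 calls without normalization between arrays and 7 without an intensity trend. Exchange factors had 2 among genes detected on all 8 arrays. Other Arf GAP domain genes had 4 to 6 calls without single arrays, with 4 without CD10-A375 replicate 2. With the replicate block these lists had 5, 5, 4, 11, 11 and 3 calls. Deviations from the group means did not go together in same-numbered arrays (correlations -0.19 to 0.03). With 4 arrays per group and values centred within groups, this cannot tell whether the numbers pair the samples. Nothing in the labels says that a number marks a shared culture or day. For the 23 named genes, 378 of 412 values kept their side of the threshold and 34 no longer passed it. Dim probes limit what can be seen: 5 of the 19 member probes, and all those of ADAP2, ACAP1 and ACAP3, were at background.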
